A study of Homo sapiens with 30 samples.

Results

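The 7 genes described here encode replacement histone variants, histones that enter chromatin outside DNA replication and whose messenger RNAs carry a poly(A) tail. They are H2AFX, H2AFY, H2AFY2, H2AFV, H2AFZ, H3F3A and H3F3B, chosen by symbol from the 27630 genes of the count tables. All 7 were among the 16504 genes that passed the filter on low counts. RNA had been sequenced in 8 libraries of HEK293FT, a fast-growing line derived from human embryonic kidney, with 2 libraries in each of 4 groups: a nuclear fraction, a cytosolic fraction, and RNA recovered near the nuclear lamina in a native preparation and in one fixed with PFA (paraformaldehyde). The lamina is the protein mesh lining the inner nuclear membrane, and RNA near it was recovered by means of APEX2, a peroxidase fused to lamin B1. Per the labels, the cells of all 4 groups were asynchronous and had been transfected with this construct, so the fractions carry it too, and no library of cells without it is analysed here. The labels give the replicate numbers but do not say whether they were separate cultures, so the p-values measure the spread between these libraries only, which may be technical.

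Most core histones are made in S phase from clustered genes whose mRNAs end in a stem-loop instead of a poly(A) tail. Replacement variants are made throughout the cell cycle and fill or mark particular places in chromatin. H3.3, which H3F3A and H3F3B encode as the same protein, is placed by HIRA at active genes and by DAXX with ATRX at heterochromatin and telomeres. H2A.Z, from H2AFZ and H2AFV, flanks promoters. H2A.X, from H2AFX, is phosphorylated around DNA breaks, and its mRNA can end either in a stem-loop or in a poly(A) tail. The macroH2A proteins of H2AFY and H2AFY2 carry a large extra domain and are enriched on repressed chromatin, including the inactive X chromosome.

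Promoters are shown for H2AFZ, H3F3B and H2AFX, the members with the largest differences between the fractions, and for H2AFV, which did not pass that test. They were picked after these values were seen. The sequences are the 250 bases before the start site from RefSeq (GRCh38.p14), read 5′ to 3′ on the gene's strand, with matches to CCAAT or TATAAA on either strand in capitals (ATTGG and TTTATA are the same motifs on the opposite strand). They lie on the minus strand at chr11:119095466-119095715 for H2AFX, chr4:99950276-99950525 for H2AFZ, chr17:75779780-75780029 for H3F3B and chr7:44848088-44848337 for H2AFV.
H2AFX: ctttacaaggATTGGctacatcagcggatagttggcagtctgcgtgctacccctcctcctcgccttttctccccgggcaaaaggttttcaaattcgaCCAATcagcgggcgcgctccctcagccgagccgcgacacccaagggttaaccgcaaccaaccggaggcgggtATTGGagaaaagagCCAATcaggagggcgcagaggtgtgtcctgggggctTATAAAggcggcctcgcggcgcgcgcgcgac
H2AFZ: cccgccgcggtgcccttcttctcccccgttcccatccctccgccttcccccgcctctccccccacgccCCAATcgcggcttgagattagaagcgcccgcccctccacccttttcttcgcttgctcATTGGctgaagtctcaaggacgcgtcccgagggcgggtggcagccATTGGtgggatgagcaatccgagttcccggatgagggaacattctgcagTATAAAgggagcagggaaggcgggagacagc
H3F3B: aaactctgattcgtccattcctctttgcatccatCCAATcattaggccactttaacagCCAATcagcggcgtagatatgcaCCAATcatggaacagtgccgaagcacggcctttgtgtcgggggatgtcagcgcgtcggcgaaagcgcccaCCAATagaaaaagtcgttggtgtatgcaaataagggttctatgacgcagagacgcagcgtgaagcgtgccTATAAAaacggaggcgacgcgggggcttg
H2AFV: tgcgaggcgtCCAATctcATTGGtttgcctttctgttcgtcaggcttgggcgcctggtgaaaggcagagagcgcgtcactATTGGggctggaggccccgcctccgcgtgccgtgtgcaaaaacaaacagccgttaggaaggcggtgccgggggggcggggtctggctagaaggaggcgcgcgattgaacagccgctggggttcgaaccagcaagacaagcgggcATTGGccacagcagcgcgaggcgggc
In H2AFX and H2AFZ the TATAAA began 31 bases before the start site, and in H3F3B it began 29 bases before it. CCAAT, the core of the site that the factor NF-Y binds, was matched 4 times in H2AFX, 3 times in H2AFZ, 4 times in H3F3B and 4 times in H2AFV. All 7 members had an entry, with 11 promoters in all. TATAAA was found for 3 of 7 members and CCAAT for 6 of 7, H2AFY2 being the one without either. Among all 35116 promoters of this length, 10.7% held TATAAA, 32.0% held CCAAT and 3.81% held both. Among the members' 11 promoters 3 held TATAAA, 8 held CCAAT and 3 held both. H2AFY and H2AFY2, which also passed the test between the fractions, had no TATAAA in these windows. These matches describe the letters only and were not tested against the RNA values.

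In the hg19 annotation of the count tables the members differ in size. H2AFX is a gene of a single exon of 1593 bases (chr11:118964585-118966177, minus strand), the layout of the clustered core histone genes. H2AFZ has 5 exon blocks and 947 exonic bases (chr4:100869244-100871512, minus), while its paralog H2AFV has 6 blocks and 4704 exonic bases (chr7:44866488-44887725, minus). H3F3B has 4 blocks and 2861 exonic bases (chr17:73772515-73776016, minus), and H3F3A has 4 blocks and 1062 exonic bases (chr1:226250408-226259703, plus). H2AFY spans 65.5 kb with 11 blocks and 2154 exonic bases (chr5:134670071-134735577, minus), and H2AFY2 spans 59.7 kb with 9 blocks and 2179 exonic bases (chr10:71812357-71872040, plus). Strand was ignored in counting and a read in several genes was counted for each, so shared exons matter. The exons of C5orf66, on the other strand, cover 175 bases of H2AFY (8.12%), and those of AIFM2 cover 18 bases of H2AFY2. C5orf66 had 168 and 155 counts in the nuclear libraries, where H2AFY had 375 and 335. In the cytosolic libraries it had 221 and 100, beside 1491 and 708 for H2AFY. How many of these reads lie in the shared bases was not tested. The pseudogene H3F3AP4 is annotated over 98.1% of the exonic bases of H3F3A, and its counts repeat those of H3F3A within 2 reads in every library.

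Library totals ran from 2321291 counts in fixed lamina replicate 2 to 8557777 in native lamina replicate 1. A floor of 3 counts corresponds to 0.351 to 1.29 CPM (counts scaled to the size of the library), and every member was above it in all 8 libraries. All 4 markers of HEK293 cells had counts in some library, with a summed level of 89.3 to 388 CPM per library. Of these PAX2 was low, with group means of 2.13 to 4.88 CPM and 0 counts in cytosolic replicate 2. The markers of K562 and HCT116 cells, the other lines of the study, summed to 0.134 to 2.21 and 0 to 1.89 CPM, and HBG1 and HBG2 were at 0. LMNB1, the gene in the construct, averaged 3369 ± 196 (SD, n = 2) normalised CPM in the nuclear, 5289.7 ± 1545 in the cytosolic, 51340.5 ± 35599 in the native and 88620.2 ± 10771 in the fixed group. The fixed lamina libraries stood apart from each other: their log2 CPM correlated at 0.911 across genes, while replicate 1 correlated at 0.957 with cytosolic replicate 1, and the nuclear RNA MALAT1 had 3222 counts in replicate 1 and 8370 in the smaller replicate 2. The file header of cytosolic replicate 1 carries the output name of nuclear replicate 1 beside its own input name, and its correlation was 0.968 with cytosolic replicate 2 and 0.79 with nuclear replicate 1.

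**Figure D1:**
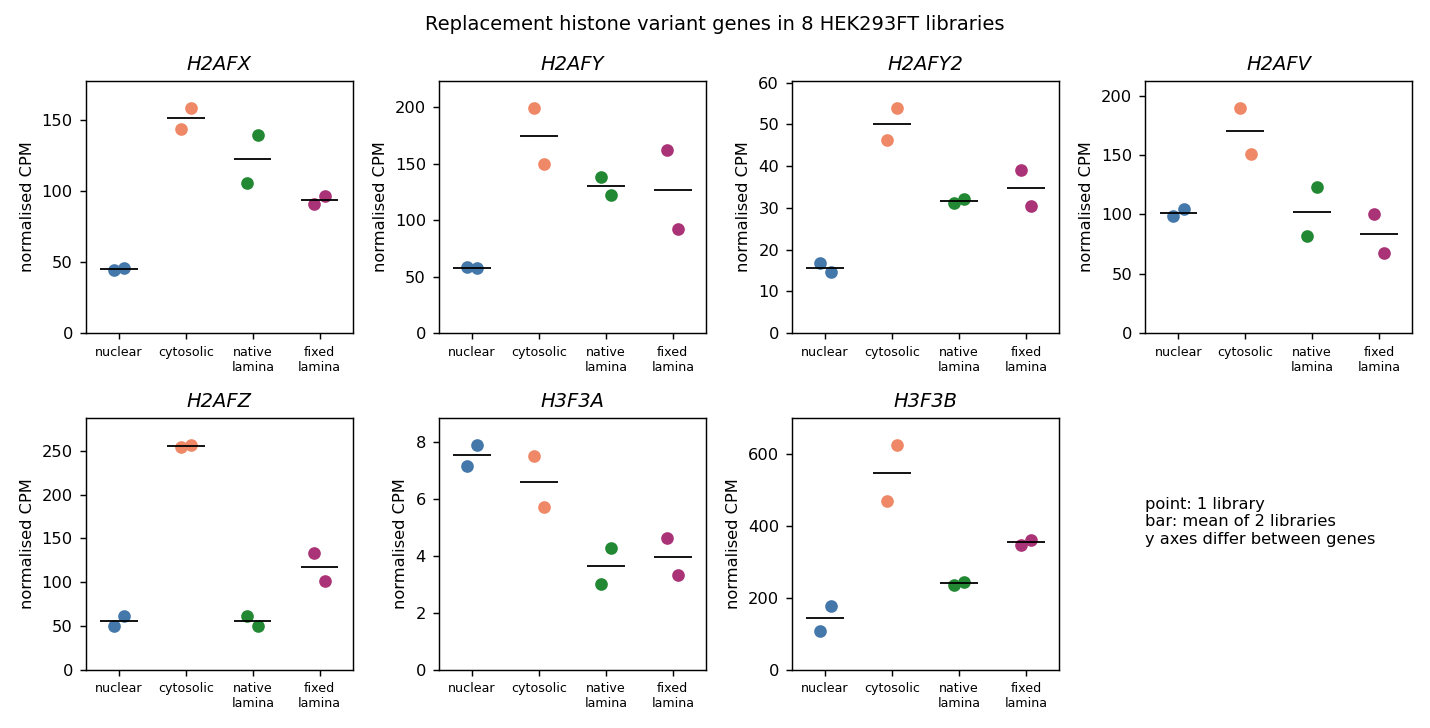
Normalised CPM (y axis, from 0, a separate scale for each gene) of the 7 replacement histone variant genes in the 4 groups (x axis), with 1 point per library and a bar at the mean of 2 libraries. Both nuclear libraries of H2AFX, H2AFY, H2AFY2 and H3F3B lie below every other library of the gene. The share of all genes with this order was not counted. H2AFZ is as low in the native lamina as in the nucleus, and H3F3A stays under 8 CPM throughout.

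Values below are CPM after scaling by TMM (trimmed mean of M values), which makes libraries comparable for a gene. They are shares of each library's RNA, so fewer cells with an RNA and less RNA per cell cannot be told apart, nor can the absolute amounts in the compartments. H2AFX, the damage-marking variant, had 44.2 and 45.5 normalised CPM in the nuclear, 144 and 158 in the cytosolic, 105 and 139 in the native lamina and 91.1 and 96.7 in the fixed lamina libraries. The nuclear libraries were lowest, the cytosolic highest, and no 2 groups overlapped. The share of all genes with such separation was not counted. H2AFY, the main macroH2A gene, had 58.4 and 57.6 in the nuclear, 199 and 149.7 in the cytosolic, 138 and 122 in the native and 162 and 92.0 in the fixed lamina libraries. The nuclear libraries were again lowest, while the 2 fixed libraries lay on both sides of the native ones and 1 of them exceeded a cytosolic library. H2AFY2, the second macroH2A gene, had 16.7 and 14.6 in the nuclear, 46.3 and 53.9 in the cytosolic, 31.1 and 32.1 in the native and 39.0 and 30.5 in the fixed lamina libraries. Again the nuclear libraries were lowest and the cytosolic highest, and the fixed and native libraries overlapped.

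H2AFZ, the gene of H2A.Z.1, had 49.8 and 61.3 normalised CPM in the nuclear, 254 and 257 in the cytosolic, 61.5 and 49.4 in the native and 133 and 102 in the fixed lamina libraries. Nuclear and native libraries covered the same range, and the fixed ones lay between these and the cytosolic ones. H2AFV, the gene of the close paralog H2A.Z.2, had 98.2 and 104 in the nuclear, 189.5 and 151 in the cytosolic, 81.9 and 123 in the native and 100.3 and 67.3 in the fixed lamina libraries. Only its cytosolic libraries stood above the others. H3F3B, the main H3.3 gene in these cells by counts, had 108 and 178 in the nuclear, 469 and 626 in the cytosolic, 237 and 243 in the native and 347 and 361 in the fixed lamina libraries. The groups of H3F3B did not overlap, in the order nuclear, native, fixed, cytosolic, and the share of all genes separated in this way was not counted.

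H3F3A gave few reads: 46 and 46 counts in the nuclear, 56 and 27 in the cytosolic, 29 and 29 in the native and 25 and 9 in the fixed lamina libraries. That equals 7.16 and 7.90 normalised CPM in the nuclear, 7.49 and 5.71 in the cytosolic, 3.01 and 4.27 in the native and 4.62 and 3.31 in the fixed lamina libraries. Nuclear and cytosolic values overlapped, and both lamina groups lay below them. Its level is uncertain, because the sequence is close to that of processed copies elsewhere in the genome and the counting command in the headers holds no option for reads with several alignments. The effect of this on the count was not tested. H3F3C, an H3.3-related gene annotated as a single exon, had 22 and 38 counts in the nuclear, 198 and 157 in the cytosolic, 186 and 82 in the native and 146 and 63 in the fixed lamina libraries, so it outnumbered H3F3A in every group but the nuclear one. Whether reads of H3F3A or H3F3B were counted for H3F3C was not tested.

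Per exonic length the order of the members changed between groups. In the nuclear fraction H2AFZ was highest at 58.7 ± 8.61 normalised CPM per kb (SD, n = 2), followed by H3F3B at 49.9 ± 17.3, H2AFX at 28.2 ± 0.59, H2AFY at 26.9 ± 0.265, H2AFV at 21.5 ± 0.915, H2AFY2 at 7.17 ± 0.665 and H3F3A at 7.09 ± 0.495. The first 2 and the last 2 of this order did not differ beyond their spread. In the cytosolic fraction H2AFZ reached 269.9 ± 2.31 and H3F3B 191 ± 38.9 normalised CPM per kb, with H2AFX at 94.8 ± 6.5 and H2AFY at 81.0 ± 16.3 not separated from each other. H2AFV followed at 36.2 ± 5.82, H2AFY2 at 23.0 ± 2.49 and H3F3A at 6.21 ± 1.18. In the native lamina H3F3B at 83.9 ± 1.61 and H2AFX at 76.8 ± 15.1 were highest, H2AFY at 60.3 ± 5.28 and H2AFZ at 58.6 ± 9.09 came next without separation, and H2AFV stood at 21.7 ± 6.12, H2AFY2 at 14.5 ± 0.338 and H3F3A at 3.43 ± 0.838. In the fixed lamina H2AFZ at 124 ± 23.3 and H3F3B at 123.8 ± 3.42 were again level, H2AFX at 59.0 ± 2.51 and H2AFY at 58.9 ± 22.9 were level below them, H2AFV at 17.8 ± 4.96 and H2AFY2 at 16.0 ± 2.74 did not separate, and H3F3A was lowest at 3.73 ± 0.871.

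**Figure D2:**
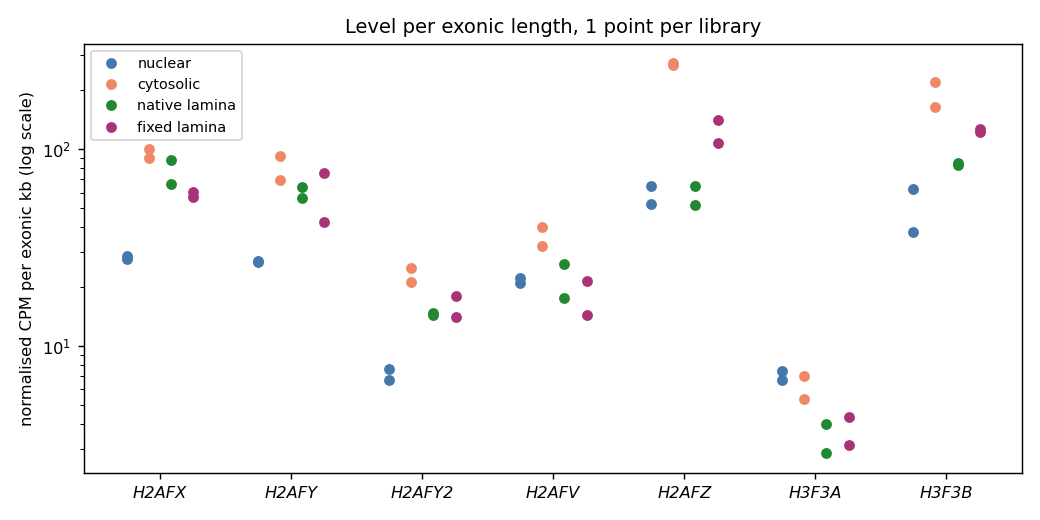
Normalised CPM per kb of exon (y axis, log scale) for each member (x axis), with 1 point per library and a colour per group. H2AFZ falls from a mean of 269.9 in the cytosolic to 58.6 in the native lamina group, where H3F3B and H2AFX are above it. H3F3A, whose level is uncertain, has the lowest mean in every group, but overlaps H2AFY2 in the nuclear one.

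The fractions ask whether an mRNA takes a larger share of the nuclear or of the cytosolic RNA. Of the 7 members, 5 were called lower in the nuclear fraction and none higher (edgeR's quasi-likelihood test, adjusted p under 0.05). By the same test 21.2% of all genes tested were called lower and 26.1% higher. H2AFZ differed most, with 55.6 ± 8.16 against 255.6 ± 2.19 normalised CPM (SD, n = 2) and -2.20 on the log2 scale (SE 0.29, adjusted p 0.000567 by edgeR). H3F3B followed at -1.94 (SE 0.33, adjusted p 0.00102), H2AFX at -1.75 (SE 0.27, adjusted p 0.000804), H2AFY2 at -1.68 (SE 0.29, adjusted p 0.00108) and H2AFY at -1.59 (SE 0.32, adjusted p 0.00209). H2AFV had a log2 fold change of -0.75 with a 95% interval from -1.41 to -0.09 and did not pass (adjusted p 0.0579), but it passed without a filter, by DESeq2, in a fit of these 4 libraries and without either fixed lamina library. H3F3A was at 0.18 (95% interval -0.83 to 1.20, adjusted p 0.769). The members' median log2 fold change was -1.68, beside 0.13 over all genes tested. The cytosolic marker ACTB moved the same way, from 379.6 ± 14.2 in the nuclear to 2128 ± 41.0 normalised CPM in the cytosolic libraries, while MALAT1 moved from 13742 ± 3932 to 885 ± 127.

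**Figure D3:**
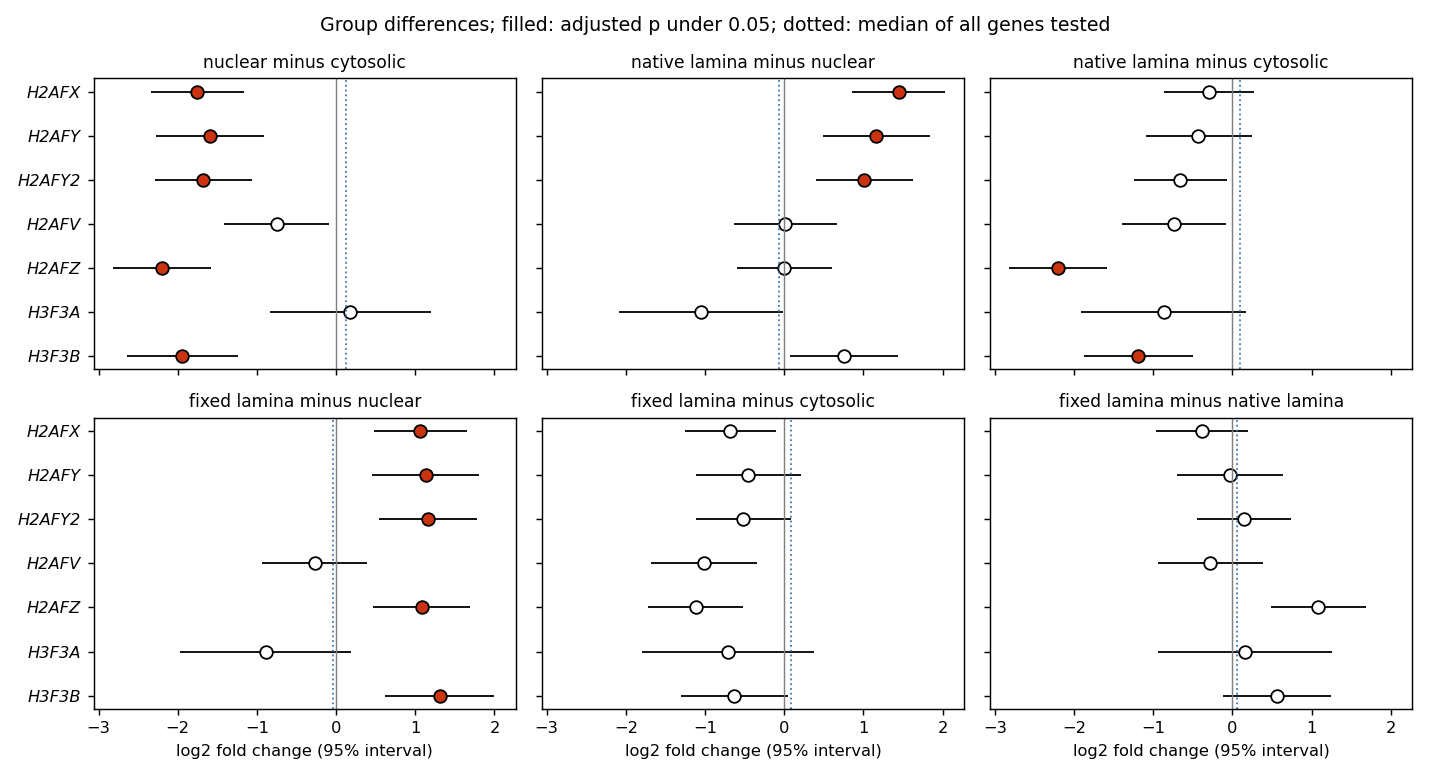
Log2 fold changes (x axis) of the 7 members (y axis) in the 6 comparisons, first group minus second, with 95% intervals; filled points have an adjusted p under 0.05 and the dotted line is the median of all genes tested. Filled points lie left of 0 for 5 members in nuclear minus cytosolic and right of 0 for 3 and 5 members in the native and the fixed lamina minus nuclear.

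Against the nuclear fraction, RNA from the native lamina held more H2AFX and more of both macroH2A mRNAs. H2AFX rose by 1.45 on the log2 scale (SE 0.27, edgeR adjusted p 0.0141), a fold of 2.73, H2AFY by 1.16 (SE 0.31, adjusted p 0.0435) and H2AFY2 by 1.01 (SE 0.28, adjusted p 0.0478). These are 3 of 7 members called higher and none called lower, where 3.87% of all genes were called higher and 3.44% lower. H3F3B had 0.75 (95% interval 0.07 to 1.43, adjusted p 0.139) and H3F3A -1.05 (95% interval -2.09 to -0.02, adjusted p 0.168), neither past the threshold. H2AFZ and H2AFV were near 0, with 95% intervals of -0.60 to 0.60 and -0.64 to 0.67. The median over the members was 0.75 and that over all genes -0.07. Without nuclear replicate 1, nuclear replicate 2 or native replicate 2, 0 members were called, where calls over all genes were 1 higher and 9 lower, 12 and 12, and 102 and 38, against 639 and 568 with all libraries. H2AFX kept log2 fold changes of 1.43, 1.48 and 1.25 in these fits. Without native replicate 1 (134 genes higher and 45 lower), cytosolic replicate 1 (386 and 367) or cytosolic replicate 2 (386 and 371), H2AFX was the only member called, as with upper-quartile scaling (412 and 652). H2AFY2 was close to the threshold and passed in 7 of 17 alternatives. H3F3B passed on total counts (edgeR adjusted p 0.0409) and in a fit of these 4 libraries (adjusted p 0.040). ACTB was at 1062 ± 116 normalised CPM in the native lamina against 379.6 ± 14.2 in the nucleus, GAPDH at 717 ± 93.4 against 493 ± 333 and EEF1A1 at 272 ± 27.8 against 205 ± 54.1, so all 3 of the 3 cytosolic markers had higher means at the lamina. MALAT1 was at 8851 ± 4801 in the native lamina. The part of such RNA in the members' values was not tested.

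The fixed lamina preparation had 5 of 7 members called above the nuclear fraction and none called below. Over all genes 9.63% were called higher and 7.81% lower. H3F3B rose by 1.31 (SE 0.32, edgeR adjusted p 0.0193), a fold of 2.48, H2AFY2 by 1.16 (SE 0.29, adjusted p 0.0204), H2AFY by 1.13 (SE 0.32, adjusted p 0.0292), H2AFZ by 1.08 (SE 0.28, adjusted p 0.0238) and H2AFX by 1.06 (SE 0.27, adjusted p 0.0222). H2AFV was at -0.27 (95% interval -0.93 to 0.39) and H3F3A at -0.89 (95% interval -1.97 to 0.19). The members' median was 1.08, beside -0.04 over all genes. Both lamina comparisons use the same nuclear libraries, so their values are not independent of each other. Without fixed replicate 1 (472 genes higher and 259 lower over all genes) or nuclear replicate 2 (314 and 147), H3F3B was the only member called. Without nuclear replicate 1 (1 and 12), and in a fit of only these 4 libraries (355 and 249), 0 members were called, against 1589 and 1289 genes with all libraries. The log2 fold changes of the 5 members lay between 0.94 and 1.25 without nuclear replicate 1 and between 1.07 and 1.31 in the fit of 4 libraries. Without fixed replicate 2 all 5 passed, where 2737 genes were higher and 3248 lower. ACTB averaged 996 ± 351, GAPDH 789 ± 329 and EEF1A1 259 ± 19.7 normalised CPM in the fixed lamina, all above their nuclear means, and MALAT1 averaged 1837 ± 1756. Their part in the result was not tested.

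Against the cytosolic fraction, the native lamina held less H2AFZ and less H3F3B. H2AFZ fell by 2.20 on the log2 scale (SE 0.29, edgeR adjusted p 0.00427) and was 4.60-fold lower. Its nuclear difference was also -2.20, against the same cytosolic libraries. H3F3B fell by 1.19 (SE 0.32, adjusted p 0.028). With 2 of 7 members called lower and none higher, the shares called over all genes were 6.77% lower and 6.99% higher. H2AFV was at -0.74 and H2AFY2 at -0.66 (both adjusted p 0.117), H3F3A at -0.87 (adjusted p 0.233), H2AFY at -0.43 (adjusted p 0.362) and H2AFX at -0.30 (adjusted p 0.452). The median over the members was -0.74 and that over all genes 0.10. H2AFZ passed in all 17 alternatives. H3F3B did not pass without cytosolic replicate 1 (49 genes higher and 196 lower over all genes), cytosolic replicate 2 (77 and 84), native replicate 1 (536 and 616) or native replicate 2 (185 and 108), nor on total counts (1646 and 581), against 1154 and 1117 with all libraries. Without fixed replicate 1, where 2225 genes were higher and 2077 lower, H2AFV was called as well.

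No member was called between the fixed lamina and the cytosolic fraction, where 0.527% of all genes were called higher and 0.145% lower. By unadjusted p under 0.05 the edgeR test had 2135 genes higher and 1421 lower, H2AFZ, H2AFV and H2AFX among the latter. H2AFZ had a log2 fold change of -1.12 (95% interval -1.72 to -0.52, adjusted p 0.0702) and H2AFV -1.02 (95% interval -1.68 to -0.35, adjusted p 0.103). H2AFX had -0.69 (95% interval -1.26 to -0.11, adjusted p 0.165), and the other members lay between -0.71 and -0.46. The members' median was -0.69 against 0.08 over all genes. Without fixed replicate 1, the library close to cytosolic replicate 1, H2AFZ and H2AFV were both called, as they were by the Wald test of DESeq2. Calls over all genes were then 1703 higher and 1166 lower, and 544 and 418 by DESeq2, against 87 and 24 with edgeR and all libraries.

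Between the 2 lamina preparations 0% of all genes were called higher and 0% lower by edgeR, with 897 higher and 924 lower at an unadjusted p under 0.05, and 49 higher and 81 lower by DESeq2. The largest member difference was that of H2AFZ, 1.08 higher in the fixed preparation (95% interval 0.48 to 1.69, unadjusted p 0.00189, adjusted p 0.286). It was called by DESeq2's Wald test and by edgeR without fixed replicate 2, where 309 genes were higher and 433 lower. H3F3B was at 0.56 (95% interval -0.12 to 1.24) and H2AFX at -0.38 (95% interval -0.96 to 0.19). For H2AFY the interval was -0.70 to 0.64, for H2AFY2 -0.45 to 0.74, for H2AFV -0.94 to 0.38 and for H3F3A -0.94 to 1.26. H2AFZ was called against the nucleus in the fixed but not in the native preparation, and this direct comparison is the test of that difference, which it did not pass.

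Paralogs were compared as the log2 ratio of counts per exonic base within a library, in which the library scaling cancels. For the H3.3 genes the ratio of H3F3B over H3F3A was 2.48 and 3.06 in the nuclear, 4.54 and 5.35 in the cytosolic, 4.87 and 4.40 in the native and 4.80 and 5.34 in the fixed lamina libraries. Both nuclear libraries lay below the other 6. This ratio rests on 9 to 56 counts of H3F3A per library, and the level of H3F3A is uncertain. For the H2A.Z genes the ratio of H2AFZ over H2AFV was 1.33 and 1.55 in the nuclear, 2.74 and 3.08 in the cytosolic, 1.90 and 1.00 in the native and 2.72 and 2.91 in the fixed lamina libraries. Native libraries lay on both sides of the nuclear ones, and fixed libraries overlapped the cytosolic ones. For macroH2A the ratio of H2AFY over H2AFY2 was 1.83 and 2.00 in the nuclear, 2.12 and 1.49 in the cytosolic, 2.17 and 1.94 in the native and 2.07 and 1.61 in the fixed lamina libraries, with overlap between all 4 groups. No test is given, since an exact two-sided permutation test of 2 against 2 libraries cannot go below 0.333. Without division by length, the mean ratio of H2AFZ over H2AFV was -0.87 in the nuclear and -0.86 in the native group, so which of the pair is the more abundant depends there on the annotated length.

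**Figure D4:**
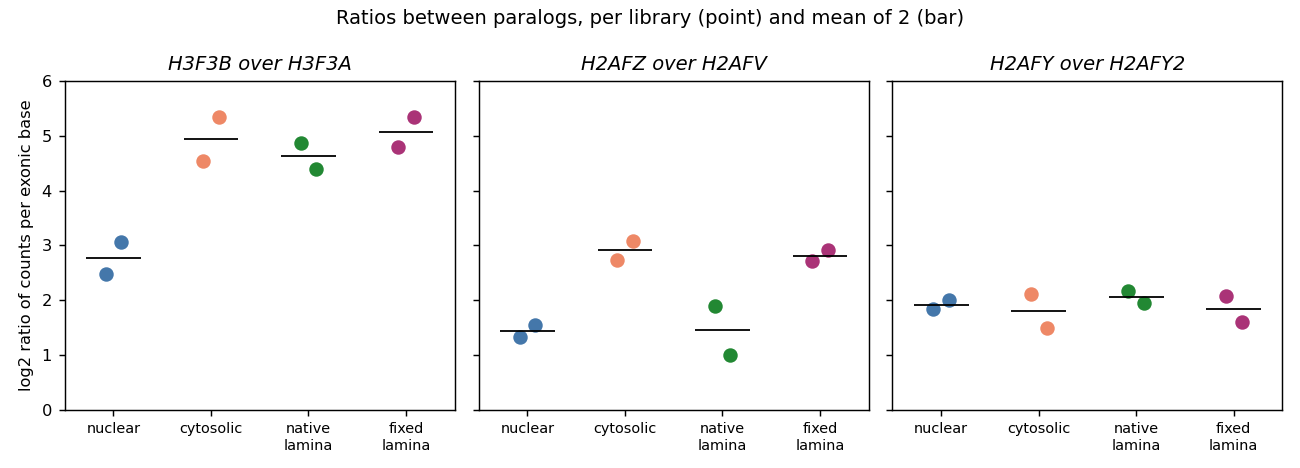
Log2 ratio of counts per exonic base (y axis) for 3 pairs of paralogs, with 1 point per library and a bar at the mean of 2, in the 4 groups (x axis). The level of H3F3A is uncertain. The means of H2AFZ over H2AFV are 1.44 and 1.45 in the nuclear and native groups and 2.91 and 2.81 in the cytosolic and fixed groups, while H2AFY over H2AFY2 stays between 1.49 and 2.17.

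Among themselves the members' patterns over the 8 libraries were compared by the root mean square difference of log2 normalised CPM after centring each gene on its own mean. The macroH2A genes H2AFY and H2AFY2 were closest at 0.228, and H2AFX was 0.243 from H2AFY2. The 2 H3.3 genes were farthest apart at 0.956. H3F3A, whose counts are few and whose level is uncertain, was also 0.951 from H2AFX and 0.949 from H2AFZ. It was 0.88 from H2AFY and 0.873 from H2AFY2, and closest to H2AFV at 0.395. H2AFZ and H2AFV were 0.75 apart. By the same measure the genes most like each member were taken from 11105 candidates. Among these were PLS1 at 0.0991 for H2AFY2, TTLL12 at 0.108 and XPOT at 0.111 for H2AFY, and DPYSL3 at 0.111 and FAM102B at 0.114 for H2AFX. For H2AFZ they were RPS20, a ribosomal protein gene, at 0.155 and GSTP1 at 0.159, and for H2AFV ARL6IP1 at 0.103 and HMGB1, a chromatin protein gene, at 0.111. For H3F3B they were KXD1 at 0.107 and ZYX at 0.122, and for H3F3A RNF216P1 at 0.122 and TSPAN31 at 0.160. The median distance to all candidates ran from 0.607 for H2AFV to 0.933 for H2AFZ.

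The replication-dependent core histones, the S-phase counterparts of the members, numbered 67 in the tables, of which 43 passed the filter. Of these 43, 41 had less RNA in the nuclear fraction than in the cytosolic and 0 had more, with a median log2 fold change of -2.94 beside the members' -1.68. In the native lamina 33 were above the nuclear fraction and 0 below (median 1.98, members 0.75), beside 3.87% and 3.44% of all genes. In the fixed lamina 40 were above it and 0 below (median 2.16, members 1.08), beside 9.63% and 7.81%. Against the cytosolic fraction 10 were lower in the native lamina (median -0.54, members -0.74), beside 6.77% of all genes. In the fixed lamina 0 differed from it (median -0.67, members -0.69), where 0.527% of all genes were higher and 0.145% lower. HIST1H3F, an H3 gene, had 9.45 ± 6.32 normalised CPM in the nuclear and 109.5 ± 17.7 in the cytosolic libraries, which is -3.54 on the log2 scale. Genes of this list share near-identical sequence, so reads may be split between them. Whether the 2 kinds of histone gene differ was not tested.

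**Figure D5:**
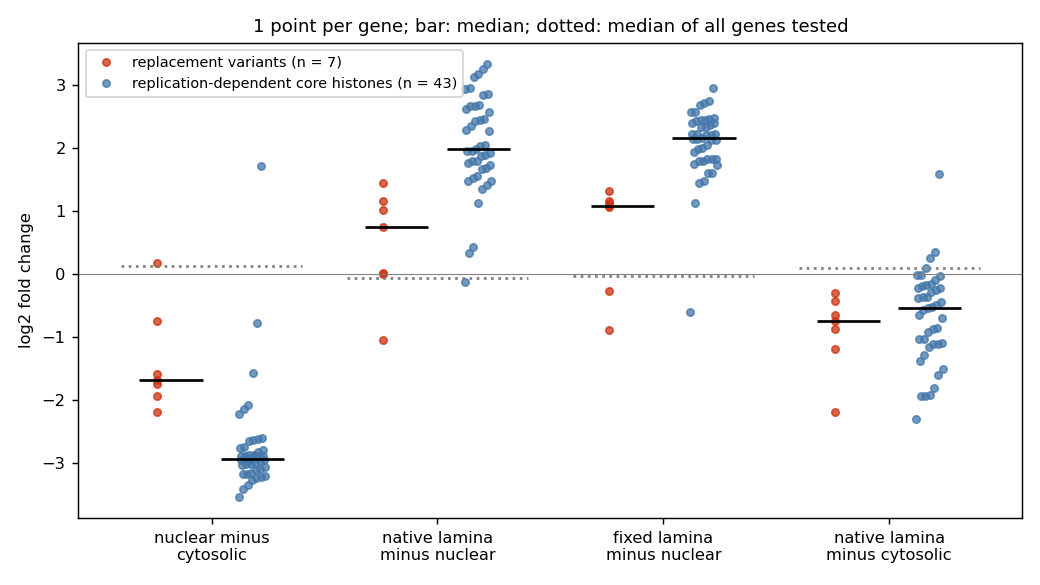
Log2 fold changes (y axis) of the 7 replacement variants and the 43 replication-dependent core histones that passed the filter, 1 point per gene, in 4 comparisons (x axis), with a bar at each median and a dotted line at the median of all genes tested. Medians in nuclear minus cytosolic are -1.68 and -2.94, and in fixed lamina minus nuclear 1.08 and 2.16.

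Of 10 other histone variant genes, 4 passed the filter and all 4 were lower in the nuclear fraction, beside 21.2% of all genes tested. H3F3C was at -2.58 (SE 0.40, edgeR adjusted p 8e-04), and the linker histone genes H1F0 and H1FX were at -2.08 and -2.01. Native lamina RNA also held more of these 3 than nuclear RNA, H3F3C by 1.67 and H1FX by 1.56 on the log2 scale and H1F0 at 605 ± 295.4 against 141 ± 30.3 normalised CPM. In the fixed lamina they were higher by 2.34 for H3F3C, 2.21 for H1F0 and 1.40 for H1FX. The remaining gene was CENPA, the centromeric H3 variant, at -1.01 in the fractions and not called at the lamina. The origin of the reads counted for H3F3C was not tested.

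Over all genes tested, 21.2% were called lower and 26.1% higher in the nuclear fraction. The gene lists below were not tested against such shares, and their counts of higher or lower genes are of genes called. Of 7 H3.3 deposition genes, 1 was lower in the nuclear fraction, DAXX, the H3.3 chaperone, at -1.61. Another 1 was higher, ATRX, its remodeller partner, at 0.98. DAXX was above the nuclear fraction in the native lamina by 1.60 and in the fixed lamina by 1.85, and UBN2, of the HIRA complex, was below it in the fixed lamina at -1.20. HIRA itself did not pass, with -0.48 in the fractions. Of 19 H2A.Z exchange genes, 9 were lower and 1 higher in the nuclear fraction. Against the nucleus, 2 were higher in the native lamina and 4 in the fixed lamina, with 0 lower in either. Over all genes 3.87% were higher and 3.44% lower in the native lamina, and 9.63% and 7.81% in the fixed lamina. VPS72, the H2A.Z-binding subunit of the SRCAP complex, was at -2.23 in the fractions, 1.33 in the native and 1.86 in the fixed lamina, and ZNHIT1 of the same complex was at -2.13 in the fractions. ANP32E, which removes H2A.Z, was at -1.41 in the fractions.

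In the list of H2A.X damage signalling, 13 of 14 symbols were tested, with 2 lower and 1 higher in the nuclear fraction. Over all genes these shares were 21.2% lower and 26.1% higher, and the lists of this paragraph were not tested against them. Counts of higher or lower genes are again of genes called. MDC1, the reader of phosphorylated H2A.X, was at -1.21 in the fractions, and higher than the nucleus by 1.23 in the native and 0.94 in the fixed lamina. ATM, a kinase of H2A.X, was higher in the nuclear fraction by 0.94 and lower in the fixed lamina than in the nucleus at -1.31. Of 5 genes of replication-coupled deposition 1 was lower in the nucleus, ASF1B at -1.16, which was also higher in the fixed lamina by 1.35. NASP of the same list was lower there at -1.17. Of 9 genes for transcribing core histone genes or processing their pre-mRNA, some of which also act on poly(A) mRNAs, 4 were lower and 2 higher in the nuclear fraction. NPAT, the activator of core histone transcription, was at 1.88 in the fractions, -1.23 in the native and -1.52 in the fixed lamina against the nucleus, and SLBP, which binds the stem-loop, was at -1.20 in the fractions.

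The position of the member genes against lamina domains could be read only in another line, HCT116 colorectal carcinoma cells, for which the study gives 1 consensus list of domains in each of G1, S and G2. None of the 7 members touched a domain in any stage, where 7.94% of 27264 genes on 1 chromosome did in G1, 6.81% in S and 9.51% in G2. H2AFY came closest, 0.164 Mb from a G2 domain at chr5:134900001-135200000, and was 0.864 Mb from the nearest in G1 and 1.16 Mb in S. H2AFV was 0.512 Mb from the nearest G1 domain and 2.07 Mb in S and G2. H2AFZ lay farthest, 27.1 Mb from the nearest domain in G1 and S and 27.3 Mb in G2. The RNA and the domains come from different lines, so the 2 were not compared further.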

How the data were processed

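RNA was measured in 8 HEK293FT libraries, ribosomal RNA having been depleted per the labels' protocols. Per the file headers, the authors counted reads over hg19 RefFlat genes with featureCounts 1.5.2, ignoring strand, and these raw counts were deposited. TopHat2 2.1.1 and Bowtie2 2.3.2 are named in the submitters' processing notes, without their role. Reads carry no molecular identifiers, so floors cover counting error only.

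Genes kept by filterByExpr were tested with edgeR 4.0.16 (R 4.3.3): TMM factors, the quasi-likelihood test, 1 fit of 8 libraries with 4 group coefficients, Benjamini-Hochberg over all genes in each of 6 comparisons, adjusted p under 0.05. The code was tested on simulated data. Alternatives were other scalings, filters and samples, a replicate block and DESeq2 1.42.0. Deposited domain intervals were used for position only.

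The members and gene lists were chosen with earlier results of these data known. All members are named, with overlapping genes, the 2 genes nearest each in pattern (at least 300 exonic bases on 1 chromosome and a mean count of at least 50) and, from each list, up to 3 called genes with the largest change. HIRA, CENPA and ANP32E, and the promoters shown, were named after their values were seen. Some items that these rules would name are not reported here.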

Additional observations from a re-analysis of the deposited data

How the results depend on the processing

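All 15 member differences past the threshold kept their direction in every one of 17 alternatives, and 6 passed in all 17: the 5 in nuclear against cytosolic and H2AFZ in native lamina against cytosolic. The count for nuclear against cytosolic was 5 or 6 throughout. In native lamina against nuclear it was 3, 1 with upper-quartile factors and 0 to 3 when 1 library was left out. H2AFY2 lost its call there with DESeq2 factors (edgeR adjusted p 0.0503), the filter of 10 counts (0.0591) and that of 300 bases (0.0521), and H3F3B gained one on total counts (0.0409) and in the 4-library fit (0.040). In native lamina against cytosolic it was 2, 1 on total counts and 1 to 3 with 1 library left out. In fixed lamina against nuclear it was 5, 0 in a fit of only those 4 libraries and 0 to 5 with 1 left out. In fixed lamina against cytosolic it was 0, 2 without a filter, 2 by DESeq2, 1 with the replicate block (H2AFZ) and 0 to 2 with 1 left out. In fixed against native lamina it was 0, 1 by DESeq2 and 0 to 1 with 1 left out. The replicate block, where samples share only a number, changed no other count of members by over 1.5 times; same-numbered libraries' deviations correlated at -0.07 to 0.32. Where leaving out a library left 1 in a group, that library was assumed to vary like the others. The cause of these changes was not tested.

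Without division by length, the log2 ratio of H3F3B over H3F3A was 4.20, 6.37, 6.06 and 6.50 (nuclear, cytosolic, native, fixed), and that of H2AFZ over H2AFV -0.87, 0.60, -0.86 and 0.50, by construction. Sign changes touched only differences that did not pass. For H2AFV in native lamina against nuclear they were -0.0021 (DESeq2 factors), -0.13 (upper quartile), -0.091 (10 counts), -0.019 (300 bases), -0.0023 (DESeq2) and -0.29 to 0.29 with 1 library left out. For H2AFZ there they were 0.29 (total counts), 0.044 (no filter), 0.072 (4 libraries) and -0.16 to 0.17 with 1 left out. Leaving out 1 library also gave -0.014 to 0.38 for H3F3A in nuclear against cytosolic and -0.58 to 0.0025 for H2AFV in fixed lamina against nuclear. In fixed against native lamina it gave -0.51 to 0.32 for H2AFY, -0.066 to 0.30 for H2AFY2, -0.62 to 0.033 for H2AFV and -0.14 to 0.41 for H3F3A. The filter of 10 counts in every library removed H3F3A, which has 9 in one. Total counts moved the median of all genes by 0.28 in native lamina against nuclear and by 0.17 in fixed lamina against nuclear, where 87.5% and 78.7% of calls were then higher instead of 52.9% and 55.2%. With upper-quartile factors these shares were 38.7% and 42.3%.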
